A study of Mus musculus with 11 samples.

Results

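The transcripts described here are the 10 rows for the chains of the CD3 complex (Cd3d, Cd3e, Cd3g and Cd247), the constant regions of the T cell receptor (TCR; Trac, Trbc1 and Trbc2), the CD8 co-receptor (Cd8a and Cd8b1) and CD45 (Ptprc). They are defined by gene symbol among the 32469 symbols of a bulk RNA-seq count table. All 10 rows were present, none was too low to test, and each held 47 to 2369 counts in every library. The table held 11 libraries of precursor exhausted CD8+ T cells (sorted as PD-1+Ly108+TIM-3- cells, among other gates), a self-renewing state of tumor T cells, sorted from Lewis lung carcinoma tumors. The tumors grew subcutaneously in both flanks of wild-type C57BL/6 female mice, 8 weeks old according to the methods. The untreated group had 5 libraries (replicates 1 to 5), and the aLAG3 group had 6 libraries (replicates 6 to 11) from mice given 200 µg of the anti-LAG-3 antibody C9B7W intraperitoneally on days 14 and 16. LAG-3 is an inhibitory receptor of activated and exhausted T cells. All mice carried the same tumor line. The deposited design gives excision on days 14 and 21, whereas the methods and the description of this experiment give day 18, so the time of sampling differs between the sources. The comparison asked whether these transcripts differed in level or proportion between treated and untreated mice.

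The TCR α and β chains bind antigen on MHC molecules but carry no signalling tail of their own. They reach the cell surface only together with the CD3 δε and γε pairs and the ζ pair encoded by Cd247, whose tails are phosphorylated by LCK when antigen is bound. CD8α and CD8β bind MHC class I and bring LCK to the receptor, and the phosphatase CD45 sets how active LCK is. The sort used antibodies to CD8, and T cells had first been enriched magnetically with antibodies that included one to TCRβ, so the presence of these transcripts is what the isolation selected for, and their abundance between groups and between libraries is what was compared.

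Trbc1 and Trbc2 encode alternative β constant regions, each of which follows its own cluster of joining segments, and a rearranged β chain uses one or the other. In GENCODE M21 (mouse build GRCm38) Trbc1 lay at chr6:41538218-41539881 and Trbc2 at chr6:41546730-41548352, both on the plus strand and 6.85 kb apart. Their coding sequences had the same length of 521 bases and differed at 23 positions (95.6% identity). The sequences are shown because they set how far reads can be told apart between these 2 rows. Bases 1 to 259 were identical, position 260 differed, and bases 261 to 382 were identical again. Bases 231 to 290, in exon 1, read as follows, with the differing base in capitals (Trbc1 chr6:41538448-41538507, Trbc2 chr6:41546960-41547019).

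Trbc1: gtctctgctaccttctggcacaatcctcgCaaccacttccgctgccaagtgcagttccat

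Trbc2: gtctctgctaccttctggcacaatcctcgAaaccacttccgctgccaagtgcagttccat

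The other 22 differences fell in the last 150 coding bases, 372 to 521 with the stop codon, which span exons 1 to 4 (Trbc1 from chr6:41538589 to 41539665, Trbc2 from chr6:41547101 to 41548181, introns removed). Differing bases are again in capitals.

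Trbc1: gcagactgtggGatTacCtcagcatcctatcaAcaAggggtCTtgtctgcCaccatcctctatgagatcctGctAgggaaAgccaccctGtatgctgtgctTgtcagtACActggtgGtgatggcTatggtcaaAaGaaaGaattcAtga

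Trbc2: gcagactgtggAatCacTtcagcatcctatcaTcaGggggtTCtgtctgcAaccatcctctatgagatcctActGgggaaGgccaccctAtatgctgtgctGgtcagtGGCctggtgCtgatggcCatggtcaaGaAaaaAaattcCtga

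Of the distinct 50-base stretches in the annotated transcripts, 40.5% of those of Trbc1 also occurred in Trbc2 and 44.0% of those of Trbc2 in Trbc1. The 50-base length was chosen here and is shorter than the reads given in the methods. These shares therefore need not equal the share of reads that match both genes. How reads that match both genes were assigned was not stated, so the level of each β constant row is uncertain.

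The remaining genes lay in known clusters. Cd3g (chr9:44969572-44980431, minus strand) and Cd3d (chr9:44981786-44987339, plus strand) are divergent neighbours separated by 1354 bases, and Cd3e (chr9:44998740-45009627, minus strand) followed 11.4 kb further on. Cd8b1 (chr6:71322788-71337494) and Cd8a (chr6:71373427-71379173) lay 35.9 kb apart on the plus strand. Trac was at chr14:54220521-54224206 and Cd247 at chr1:165788681-165877277, both on the plus strand, and Ptprc was at chr1:138062861-138175708 on the minus strand. Cd247 overlapped Pou2f1 on the opposite strand, with which its annotated transcripts shared 53.0% of their 50-base stretches. Because the handling of strand was not stated, the Cd247 row is uncertain as well. For the other members, shared stretches came to at most 6.28%, the value of Cd8b1.

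Total counts ranged from 313524 to 1901374 per library, with a median of 566144. The libraries carried 3 primer barcodes, which the labels give without tying them to a day or run. The 4 libraries with barcode 8 had a median of 411797 counts, the 6 with barcode 9 a median of 1141451, and the single barcode 10 library 317449. Barcode 9 held 3 libraries of each group, barcode 8 held 1 untreated and 3 aLAG3 libraries, and barcode 10 held 1 untreated library. Some libraries also shared the number after the letter S in their titles, which the labels do not explain. This S number was 37 for untreated replicates 2 and 3 and aLAG3 replicate 10, and 36 for untreated replicates 4 and 5. Levels other than summed marker lists are given as normalised counts (CPM, scaled to the library's total in the tested rows). Summed marker lists are given as CPM of the library's total counts over all rows, without this scaling. Cd4 and the δ and γ constant rows were almost absent. Cd4 had 0 or 1 count per library and Trdc (the δ constant region) 0 to 2. None of the γ constant rows Trgc1, Trgc2, Trgc3 and Trgc4 had more than 10. The 6 rows of δ variable segments together had 0 to 51 counts per library, with at most 35 in a single row. The 7 rows of γ variable segments had 1 to 35, with at most 20 in a single row. Among the sort's own markers, Pdcd1 and Slamf6, which encode PD-1 and Ly108, had at least 164 and 26 counts. Havcr2 (TIM-3), against which the sort selected, had 0 to 7 counts. Summed marker lists of other cells lay between 43.3 and 78.8 CPM in untreated and between 46.1 and 159 CPM in aLAG3 libraries for 9 myeloid genes, and between 78.8 and 108 against 70.2 and 118 CPM for 7 B cell genes, of which Cd79a had 1 count in all libraries together. Both endothelial markers together (Pecam1 and Cdh5) had 56 to 235 counts in untreated and 67 to 369 in aLAG3 libraries. Pecam1 alone had 56 to 235 and 67 to 364 counts, so nearly all of this sum was Pecam1 and little of it Cdh5. The lists for CD4 and γδ T cells, NK cells, erythroid cells, fibroblasts and tumor epithelium each stayed at or below 24.4 CPM of total counts. Their part in the results was not tested.

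No difference between the groups passed the test for any of the 10 transcripts. With edgeR's quasi-likelihood test, 0 of 10 had a Benjamini-Hochberg adjusted p under 0.05 (adjusted p = 0.999 for each), beside 0 of 6949 genes tested (0%). At an unadjusted p under 0.05 the counts were 0 of 10 and 259 of 6949 (3.73%). CPM ranges of the groups overlapped for all 10 members, and did not overlap for 33 of all genes (0.475%). The log2 fold change (aLAG3 minus untreated) was positive for 5 and negative for 5 rows, with a median of 0.0092, where that of all tested genes was 0.0045. Over the members the median absolute log2 fold change was 0.03, against 0.11 over all genes, but the members were among the most abundant rows (percentiles 86.5 to 98.2 of mean CPM), where fold changes have smaller errors. The 95% confidence intervals of the 10 fold changes lay between 0.853-fold and 1.22-fold. DESeq2 also called 0 genes (163 at an unadjusted p under 0.05), as did the edgeR likelihood ratio test (307). In bulk samples fewer cells of a type and less RNA per cell cannot be told apart, and the p-values measure the spread between libraries. The number of mice in the study's design equals the number of libraries in each group, although the labels name no mouse for a library.

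**Figure D1:**
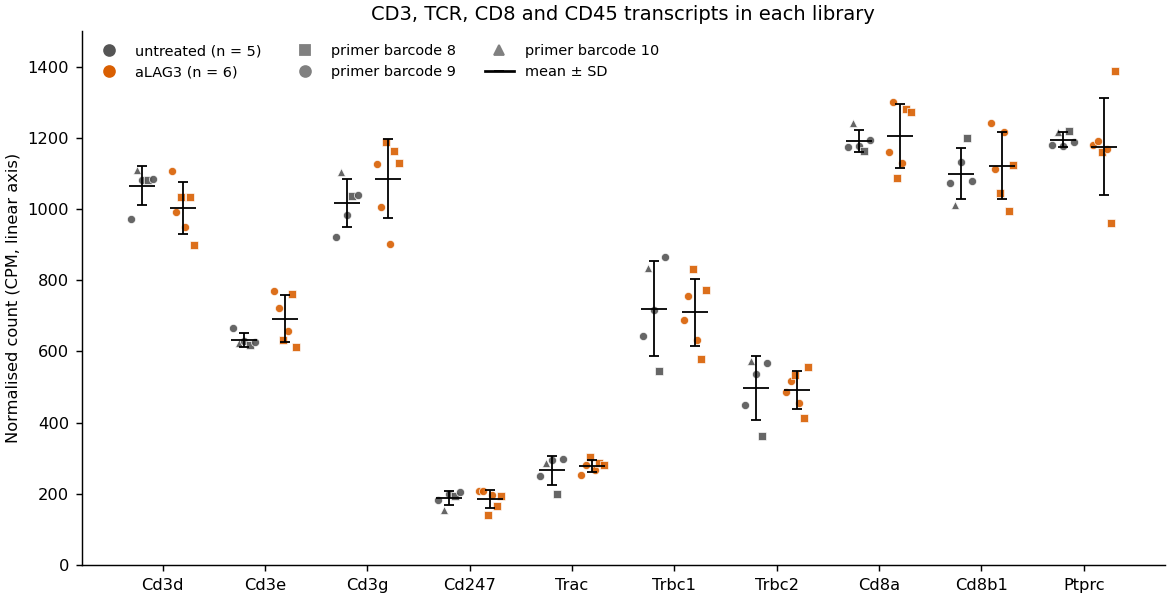
Normalised counts (CPM, linear axis from 0) of the 10 transcripts in each library, untreated in gray (n = 5) and aLAG3 in orange (n = 6), with primer barcodes as symbols and mean ± SD in black. The groups overlap for every transcript, Cd247 and Trac have the lowest CPM (not corrected for length), and Ptprc spreads from 960.4 to 1389 CPM in aLAG3 libraries but only from 1176 to 1219 CPM in untreated ones.

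Among the CD3 chains, Cd3e, the chain shared by both CD3 dimers, had the largest fold change of the 10. Its untreated values were 665, 623, 630.1, 617 and 627 CPM, and the aLAG3 values ran from 613 over a median of 690.2 to 770 CPM. The aLAG3 libraries thus covered the whole untreated range and extended above it, with 3 of 6 (replicates 6, 7 and 10) above the highest untreated library. The log2 fold change was 0.13 (SE 0.075, adjusted p = 0.999, edgeR quasi-likelihood test).

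Cd3g, the γ chain, had 921, 1104, 982, 1037 and 1041 CPM in untreated libraries and 903 to 1189 CPM, with a median of 1128, in aLAG3 libraries (log2 fold change 0.09, SE 0.074). Cd3d, the δ chain, had 972, 1111, 1082, 1081 and 1084 CPM against 900.0 to 1107 CPM with a median of 1013 (log2 fold change -0.08, SE 0.066). These chains, encoded side by side, thus had fold changes of opposite sign, each smaller than 2 SE.

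Cd247, whose ζ product carries most of the phosphorylation motifs of the complex, had the fewest counts of the 10 rows, and also the lowest level per length. It had 184, 155, 199, 195 and 206 CPM in untreated libraries and 142 to 208 CPM, with a median of 195, in aLAG3 libraries. The log2 fold change was -0.00079 (SE 0.11), and its sign depended on the setting.

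**Figure D2:**
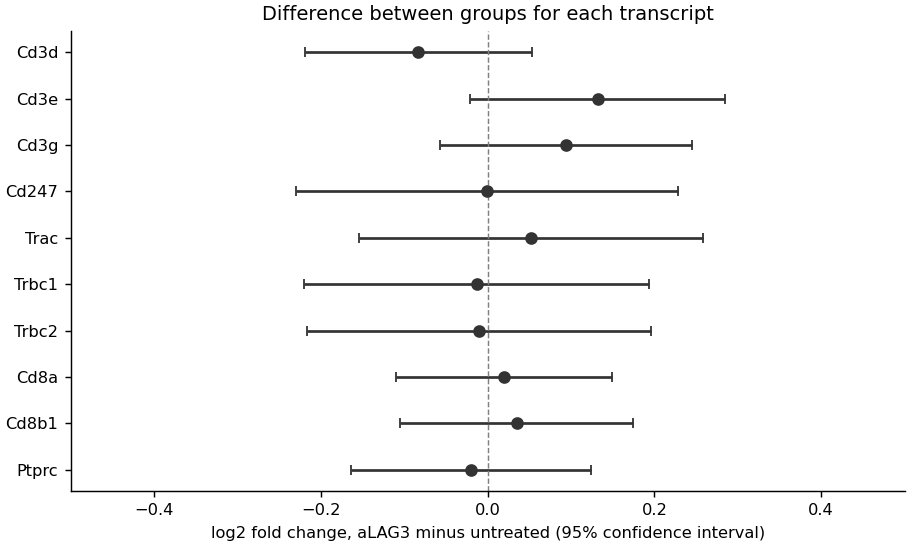
Log2 fold change of each transcript (aLAG3 minus untreated, points) with its 95% confidence interval (bars). Every interval includes 0, from Cd3d at -0.08 to Cd3e at 0.13.

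The TCR constant rows had similar means in both groups. Trac, the α constant region, averaged 266 ± 41.7 CPM over the untreated libraries (SD, n = 5) and 278 ± 17.1 CPM over the aLAG3 libraries (SD, n = 6). Trbc1 averaged 721 ± 132 against 709.9 ± 95.1 CPM, and Trbc2 averaged 498 ± 90.0 against 493 ± 53.4 CPM. The log2 fold changes were 0.05 (SE 0.10), -0.01 (SE 0.10) and -0.01 (SE 0.10). As 1 summed row, Trbc1 and Trbc2 had a log2 fold change of -0.02 (adjusted p = 1.00, edgeR quasi-likelihood test).

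The spread of these rows lay within the groups. Untreated replicate 4 (barcode 8) had the lowest value of all 11 libraries for each, with 199.8 CPM of Trac, 546 CPM of Trbc1 and 364 CPM of Trbc2. In aLAG3 replicate 10, also of barcode 8, Trbc1 (578 CPM) and Trbc2 (413 CPM) were the next lowest, while Trac (287 CPM) was not low. Summed over the 3 rows, levels ran from 1109 to 1731 CPM in untreated and from 1278 to 1668 CPM in aLAG3 libraries.

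Trbc1 and Trbc2 rose and fell together from library to library. Trbc1 had more counts than Trbc2 in all 11 libraries, with a ratio of counts between 1.33 and 1.56 (median 1.43). Of all 45 pairs of members, this ratio varied least, with a chi-square per degree of freedom of 0.424 over the libraries, where 1 is the value of counting noise alone. Levels centred on their group means correlated with Pearson's r = 0.955 and Spearman's rho = 0.900 over the 11 libraries (permutation p = 1e-05, the smallest that 100000 permutations can give, and p = 0.00044, adjusted over 45 pairs to 0.00045 and 0.0198). Without the 2 libraries farthest from the median of Trbc1, r was 0.912, and among the 6 barcode 9 libraries it was 0.925. The shared sequence shown above can by itself place reads of 1 gene in the row of the other, and its part in this correlation was not tested.

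Trac, encoded on another chromosome, followed the same order less closely. Its r was 0.805 with Trbc2 (permutation p = 0.00375, adjusted over 45 pairs 0.0844) and 0.746 with Trbc1 (permutation p = 0.0059, adjusted 0.0885). Spearman's rho was 0.727 (permutation p = 0.0151, adjusted 0.315) and 0.700 (permutation p = 0.021, adjusted 0.315). Without the 2 libraries farthest from the median of Trac, r dropped to 0.514 and 0.481, and without those farthest from the median of Trbc2 and Trbc1 it was 0.792 and 0.749. These relations did not pass after adjustment. Among the barcode 9 libraries r was 0.870 and 0.740.

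**Figure D3:**
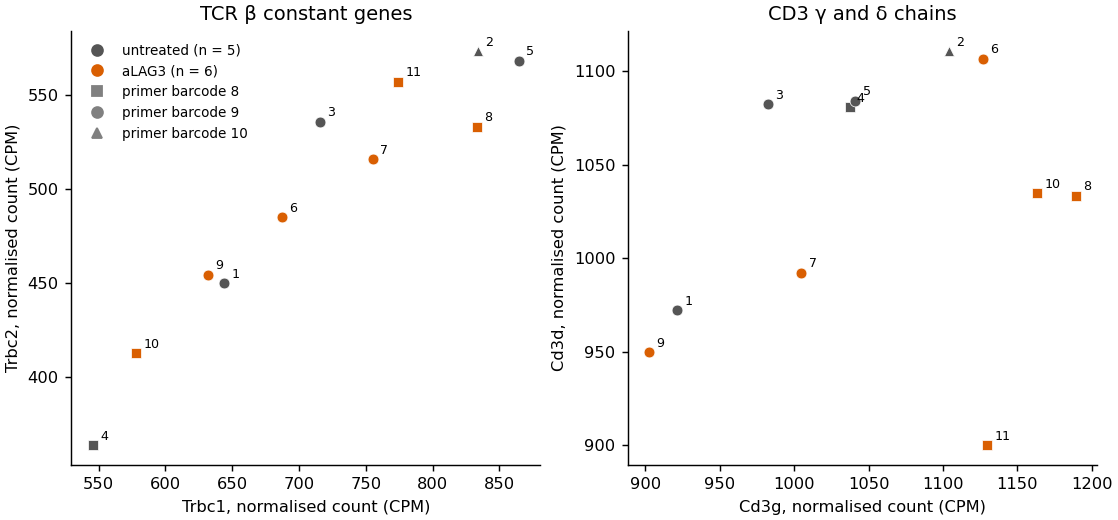
Trbc2 against Trbc1 (left) and Cd3d against Cd3g (right) in each of the 11 libraries, in CPM, with replicate numbers beside the points, groups as colors and primer barcodes as symbols; axes do not start at 0. Trbc1 and Trbc2 lie along 1 line in both groups, with replicate 4 lowest, while on the right the barcode 8 aLAG3 libraries (8, 10 and 11) have high Cd3g for their Cd3d.

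The CD8 chains were among the least variable of the 10 rows. Cd8a, the α chain, had 1176, 1243, 1177, 1163 and 1195 CPM in untreated libraries and 1088 to 1301 CPM, with a median of 1217, in aLAG3 libraries (log2 fold change 0.02, SE 0.063). Cd8b1, the β chain, had 1073, 1012, 1134, 1201 and 1080.4 CPM against 994 to 1241 CPM with a median of 1119 (log2 fold change 0.03, SE 0.068). The biological coefficient of variation of Cd8a, 0.075, was so low that only 1.84% of all tested genes had a lower one.

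Ptprc, which encodes CD45, had 1179, 1216, 1176, 1219 and 1187 CPM in the untreated libraries, the narrowest range of the 10 rows in proportion to its mean (coefficient of variation 1.71%). The aLAG3 libraries ran from 960.4 over a median of 1176 to 1389 CPM (coefficient of variation 11.6%). The extremes were the barcode 8 libraries 10 (960.4 CPM) and 11 (1389 CPM), whereas the other 4 lay between 1161 and 1190.4 CPM. The log2 fold change was -0.02 (SE 0.070). CD45 isoforms, which differ by alternative exons, cannot be told apart in a count per gene.

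Of the 10 members, 7 had a larger coefficient of variation in aLAG3 than in untreated libraries (70%), and the exceptions were the 3 TCR constant rows. Over all tested genes the share was 53.1%, and the difference in spread was not tested. Within groups, the members varied more than counting noise, with a median chi-square per degree of freedom of 3.12 against 1.46 for all genes. This measure grows with the number of counts, which was high for the members. Their median biological coefficient of variation, which leaves counting noise out, was lower than that of all genes (0.086 against 0.12). Trbc1 had the highest chi-square per degree of freedom of the members, 8.67, and Cd247 the lowest, 1.46.

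Compared per length, the order of the members was similar in both groups. Divided by the longest annotated transcript, the level was highest for Cd3g (994 CPM per kb in untreated and 1062 in aLAG3 libraries), followed by Trbc1 (978 and 963), Cd8b1 (742 and 757), Trbc2 (720.0 and 712) and Cd3d (659 and 620.2). Cd3e (433 and 474), Cd8a (381 and 386), Trac (284 and 298), Ptprc (236 and 232) and Cd247 (63.5 and 62.7) came after. The order is approximate, because the primer barcode was added at the template-switch end and counts of reads taken near a transcript's end would not scale with its length, because the transcript used by these cells was not determined, and because the 2 uncertain β constant rows and Cd247 enter it. Neighbouring values such as Cd3g and Trbc1 or Cd8b1 and Trbc2 lie within the spread of Trbc1 and Trbc2 between libraries.

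Subunits of a complex can also change in proportion, which the ratio of 2 rows in the same library measures without any scaling between libraries. Of 5 ratios, Cd3d to Cd3g differed most. It was 1.06, 1.01, 1.10, 1.04 and 1.04 in untreated libraries, and ran from 0.797 over 0.869, 0.890, 0.982 and 0.987 to 1.05 in aLAG3 libraries. In the aLAG3 group 5 of 6 libraries lay below every untreated library, and replicate 9 lay inside the untreated range. The difference in log2 ratio was -0.18 (exact two-sided permutation test, p = 0.0173, adjusted over 5 ratios 0.0866), so it did not pass after adjustment, where 5 against 6 libraries can reach p = 0.00433 at the smallest.

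The lowest Cd3d to Cd3g ratios were those of the aLAG3 libraries with barcode 8. All 3 lay between 0.797 and 0.890, and the untreated library of that barcode at 1.04. Among the libraries with S number 37, aLAG3 replicate 10 had 0.890, and untreated replicates 2 and 3 had 1.01 and 1.10. Within barcode 9, the ratio was 0.982 to 1.05 in aLAG3 and 1.04 to 1.10 in untreated libraries, a log2 difference of -0.08 (exact permutation test, p = 0.2, where 3 against 3 cannot go below 0.1). Leaving out aLAG3 replicate 9 brought the adjusted p to 0.0397 (log2 difference -0.22). Cd3d and Cd3g themselves correlated with r = 0.526 (permutation p = 0.0978, rho = 0.618) over 11 libraries after centring. Without the 2 libraries farthest from the median of Cd3d r was 0.769, without those farthest from that of Cd3g it was 0.210, and among the 6 barcode 9 libraries it was 0.935.

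The other ratios differed by less than their spread. Cd8a to Cd8b1, the chains of the co-receptor, ran from 0.968 to 1.23 in untreated and from 0.930 to 1.29 in aLAG3 libraries (log2 difference -0.01, exact permutation p = 0.900). Cd247 to Cd3e ran from 0.253 to 0.331 and from 0.221 to 0.320 (log2 difference -0.15, exact permutation p = 0.247, adjusted 0.617). Trac to Cd3e ran from 0.326 to 0.478 and from 0.329 to 0.480 (log2 difference -0.05, exact permutation p = 0.792). Trbc1 to Trbc2 ran from 1.33 to 1.52 and from 1.39 to 1.56 (log2 difference -0.01, exact permutation p = 0.792). The Cd8a to Cd8b1 ratio varied beyond counting noise between libraries (chi-square per degree of freedom 4.29 over all libraries of both groups together).

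**Figure D4:**
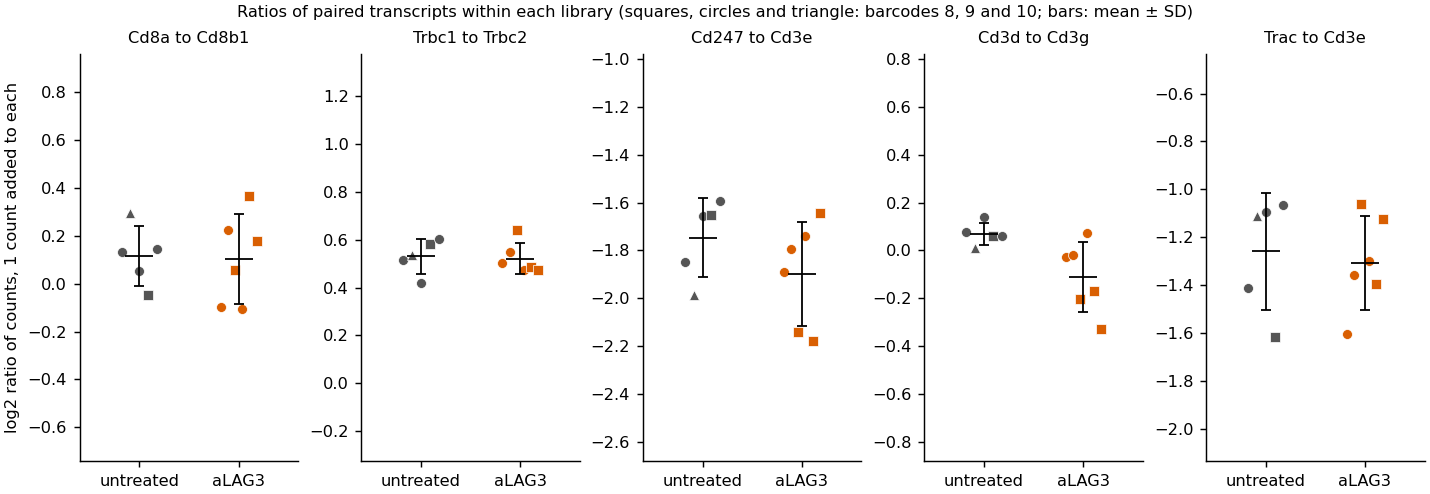
Log2 ratios of counts (1 count added to each) in each library, 1 panel per pair, untreated in gray and aLAG3 in orange, with primer barcodes as symbols and mean ± SD in black; all panels span the same log2 range. Only in the Cd3d to Cd3g panel do most aLAG3 libraries (5 of 6) lie below all untreated ones, and over all 11 libraries Trbc1 to Trbc2 has the narrowest spread.

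Over the 45 pairs of members the median r of centred levels was -0.0012, with a range from -0.642 (Cd3e with Ptprc) to 0.955, and 22 pairs above 0. The median over all pairs of tested genes was -0.0013. Among the 6 barcode 9 libraries alone the median over the members' pairs was 0.449, with 34 of 45 above 0 and a range from -0.847 (Cd8a with Cd8b1) to 0.977 (Cd247 with Trbc2), where all pairs of tested genes had a median of -0.00098. Cd247 with Trbc2 had r = -0.090 over all 11 libraries, and the difference between these sets of libraries was not tested. Over all 11 libraries Trbc1 with Trbc2 was the only one of the 45 pairs with an adjusted permutation p under 0.05. Outside the members, the genes with the most similar pattern were Gnb4 (r = 0.894) and Copb2 (r = 0.881) for Cd3e, Mrpl53 (r = 0.931) and Bptf (r = 0.913) for Trac, Ece1 (r = 0.949) and Dalrd3 (r = 0.923) for Cd8a, and Med11 (r = 0.982) and Vbp1 (r = 0.942) for Ptprc. These were the highest of all tested genes over the 11 libraries, which differ in depth and barcode, and are given as a description.

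Of the signalling proteins and adaptors that act at the receptor in the membrane, 20 of 24 listed genes were tested and 0 passed the test (0% of all genes), with 15 positive and 5 negative fold changes and a median log2 fold change of 0.04. Over all tested genes 3553 fold changes were positive and 3396 negative. None had an unadjusted p under 0.05. Those with the smallest p were Lax1, an inhibitory adaptor (47.4 ± 6.68 against 37.9 ± 5.74 CPM, log2 fold change -0.29, SE 0.17), the kinase gene Fyn (106 ± 8.28 against 90.0 ± 17.4 CPM, log2 fold change -0.22, SE 0.14), the phosphatase gene Ptpn22 (271 ± 43.2 against 303 ± 46.4 CPM, 0.14, SE 0.11) and Cd5, an inhibitory surface receptor (161 ± 37.2 against 182 ± 17.1 CPM, 0.15, SE 0.12; all SD, n = 5 and n = 6). Pag1, Ptprj, Nck2 and Unc119 were too low to test, with at most 23 counts in a library.

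Of 16 listed transcription factors and cofactors that act on T cell identity genes, 14 were tested and 0 passed the test, with 7 fold changes in each direction and a median log2 fold change of -0.03. At an unadjusted p under 0.05 there were 2 of 14, Tox and Tcf3, beside 3.73% of all genes. Tox, a factor that sustains exhausted T cells, had 135 ± 27.7 CPM in untreated and 173 ± 25.0 CPM in aLAG3 libraries (log2 fold change 0.32, SE 0.13, adjusted p = 0.999). Tcf3, which encodes the E protein E2A, had 55.6 ± 12.1 against 42.8 ± 15.8 CPM (log2 fold change -0.54, SE 0.25, adjusted p = 0.999). Tcf12, another E protein gene (log2 fold change -0.30, SE 0.24), and Ikzf1, which encodes Ikaros (log2 fold change -0.13, SE 0.12), came next. Zbtb7b and Patz1 were too low to test. Rows of the α and β variable segments were not analysed here. The 58 rows of α joining segments had 16 to 100 counts per library in all, and at most 17 in a single row, too few for a comparison.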

How the data were processed

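Poly(A) RNA of sorted T cells was reverse transcribed and amplified by the authors, who trimmed reads with Cutadapt and mapped them to GRCm38 reference RNA with Bowtie2. The submitters' processing notes name Cutadapt 4.1 and Bowtie2 2.4.5. The deposited values are raw counts per gene symbol. The handling of strand and of multiply mapped reads is not given in the sources used here. Groups came from the treatment labels. Replicate numbers are not shared between groups, so no pairing was used. Per the study's reporting summary, purity was not checked for cells sorted directly into lysis buffer, whereas re-analysed sorts of clearly separated populations were of high purity.

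Rows were kept with filterByExpr (10 counts at median depth, 17.7 CPM, in at least 5 libraries, and 15 in all), which held 95.0 to 95.3% of each library's counts. They were scaled by TMM and tested with edgeR 4.0.16 (R 4.3.3) by the quasi-likelihood test, with Benjamini-Hochberg adjustment over all rows and a threshold of 0.05. CPM levels use TMM-scaled totals of these rows. Summed marker lists, the filter's cut-off and the CPM of 3 counts use total counts over all rows instead. SE refers to log2 fold changes. Ratios use counts plus 1 and exact permutation tests over libraries (scipy 1.17.1). Correlations use log2 CPM with a prior count of 2, centred by group. At the total counts given, 3 counts correspond to 1.58 to 9.57 CPM. The 55 pairs of libraries differed beyond sampling noise (chi-square per degree of freedom 1.47 to 2.91), so none was a copy. DESeq2 1.42.0, other scalings, no filter, primer barcode and left-out libraries were alternatives. Gene positions and sequences come from GENCODE M21. Named genes are all members, up to 4 genes with the smallest p of each list, chains an αβ CD8+ T cell lacks, and the 2 genes most like each of 4 members. Sort and cell type markers, untested genes of the lists and the few genes called under an alternative are named besides. The members are defined by symbol and not by a measured value, but they and the lists were chosen with earlier results of these data known. Some markers of the sort and of other cell types are not reported here.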

Additional observations from a re-analysis of the deposited data

Results flagged for a closer look

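In the untreated group, replicate 1 stood apart from the other 4 libraries for 2 CD3 chains. Its Cd3d level was 972 CPM, where the others lay between 1081 and 1111 CPM, and its Cd3e level was 665 CPM, where the others lay between 617 and 630.1 CPM. Thus Cd3d was low and Cd3e high in the same library, which was the deepest of its group and carried barcode 9. In all, 30 sets of values (10 levels and 5 ratios in each group) were examined, of which chance would flag 1.5. Without this library the log2 fold changes were -0.12 for Cd3d and 0.15 for Cd3e, and neither passed the test.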

How the results depend on the processing

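Under all 19 alternatives (other tests and scalings, no filter, barcode, summed Trbc1 and Trbc2, each library left out) 0 members were called, and none had an unadjusted p under 0.05. Over all genes, 0 were called except for 3 with no filter (5830405F06Rik, Ccl1 and Plac8) and 0 to 2 when a library was left out, the 2 being C2cd4b and Plac8 without aLAG3 replicate 7. These were named after their values were seen. Cd3d, Cd3e, Cd3g, Cd8a, Cd8b1 and Ptprc kept the sign of their fold change under each alternative other than leaving out a library. The sign turned for the others: Cd247 (log2 0.0038 with the likelihood ratio test, 0.011 with upper quartile scaling, 0.0089 with no filter, 0.057 in barcode 9 alone), Trac (-0.066 in barcode 9 alone), Trbc1 (0.055 with barcode as covariate) and Trbc2 (0.0020 with upper quartile scaling, 0.062 with barcode as covariate). The cause was not tested.

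Leaving out 1 library in turn gave log2 fold changes of -0.12 to -0.06 for Cd3d, 0.09 to 0.16 for Cd3e, 0.06 to 0.14 for Cd3g, -0.049 to 0.054 for Cd247, -0.021 to 0.096 for Trac, -0.089 to 0.061 for Trbc1, -0.093 to 0.041 for Trbc2, -0.011 to 0.044 for Cd8a, -0.00021 to 0.066 for Cd8b1 and -0.076 to 0.024 for Ptprc. The log2 differences of ratios were then -0.22 to -0.14 for Cd3d to Cd3g (adjusted p 0.0397 to 0.190), -0.21 to -0.10 for Cd247 to Cd3e, -0.064 to 0.033 for Cd8a to Cd8b1, -0.039 to 0.0076 for Trbc1 to Trbc2 and -0.14 to 0.013 for Trac to Cd3e. The Cd3d to Cd3g ratio passed after adjustment only without aLAG3 replicate 9.

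With 0.5 or 2 counts added, no ratio changed sign or call. In barcode 9 alone no sign changed, and a call could not be reached (3 against 3, smallest p 0.1), while the log2 differences were -0.23 for Trac to Cd3e, -0.10 for Cd8a to Cd8b1, -0.11 for Cd247 to Cd3e, -0.08 for Cd3d to Cd3g and -0.0034 for Trbc1 to Trbc2. No paired analysis was run, because the groups share no replicate number. Primer barcode, which both groups share in part, was fitted as a covariate instead. The number of variable segments in use was planned but not analysed here. Depth limits Cd247 most, with as few as 47 counts in a library.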
